A study of Mus musculus with 6 samples.

Results

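Fat cell transcripts were followed in whole mammary glands of Elf5 knockout (KO) and wild-type mice. The set comprised 31 genes chosen by name as white or brown adipocyte genes, out of 18193 genes with a named probe set on the array. Of the 31, 25 were counted as white and general adipocyte genes and 6 as brown adipocyte genes, and 27 were measured (21 white, 6 brown). Cfd, Plin1, Adrb3 and Acsl1 were not analysed here. Each gene was read from the probe set with the highest mean over the 6 arrays. RNA from 3 Elf5 KO glands and 3 wild-type glands was hybridised to 1 Affymetrix mouse array each, and the titles call the samples biological replicates of animals. The product of Elf5 is an ETS-family factor that drives luminal cells toward milk secretion. Sample labels put the glands at day 17 of pregnancy, but the design text of the series puts them at day 1 of lactation, and the stage is therefore not used below. The labels name no strain, age or method of disrupting the gene, and no allele or agent shared by both groups is named.

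In the mammary gland the epithelium grows into a pad of white fat, and during pregnancy the expanding alveoli come to fill it while adipocytes lose lipid. White adipocytes store triglyceride in a single large droplet under the control of the nuclear receptor Pparg and its partner Cebpa, release fatty acids through a chain of lipases, and secrete hormones such as leptin and adiponectin. Brown adipocytes burn lipid for heat through the mitochondrial uncoupling protein Ucp1. In RNA from a whole gland, fewer cells of a type and less RNA per cell cannot be told apart, and a share of one cell type alters the share of all others.

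The glands were not equal in RNA quality. Gapdh has control probe sets at both ends of its transcript, and the signal at the 3' end over that at the 5' end, low for intact RNA, was 0.802, 3.89 and 13.6 in KO arrays 1, 2 and 3, against 1.09, 0.833 and 0.876 in wild-type arrays 1, 2 and 3. The same ratio for beta-actin was 1.58, 1.87 and 20.996 in KO arrays 1, 2 and 3, against 2.04, 1.20 and 1.84 in wild-type arrays 1, 2 and 3. By beta-actin only KO array 3 stood apart, and KO array 2 lay within the wild-type range. By Pcx, given below, KO array 2 stood apart, as it did by Gapdh. Values of KO array 1 against the 3 wild-type arrays, the 4 arrays with a Gapdh ratio under 2, are given beside the results. They rest on 1 KO gland, and the choice of these arrays follows Gapdh and not beta-actin. Elf5 itself read 5616, 4361 and 3128 in the KO arrays, against 12011, 8044 and 7244 in the wild-type arrays; whether its probes lie in the disrupted part is not stated. Signals are the authors' linear MAS5 values, and differences are on the log2(signal + 16) scale, KO minus wild type, with the moderated standard error (SE) of limma over 3 arrays per group.

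Most measured white adipocyte markers were bright in all 6 glands. Adipoq, the adipocyte hormone adiponectin, read 10756, 8118 and 5905 in the KO arrays, against 4991, 5125 and 6334 in the wild-type arrays. Fabp4, a fatty acid carrier of adipocytes that capillary endothelium also makes, read 13483, 12948 and 10830.0 in the KO arrays, against 9857, 12629 and 10119 in the wild-type arrays. Brown markers were uneven: Ucp1 read between 13.8 and 672 over the 6 arrays. Cox8b and Elovl3, like Ucp1, were lowest in wild-type array 2, at 24.6 and 39. In that array Otop1 (244) and Cidea (10938), which the secreting epithelium also makes, lay above every KO array. Elovl3 was named after its values were seen. Of the other measured white markers, Retn read 725 to 6917 and Cidec 683 to 2569. Lep was at 18.5 in wild-type array 1, under the signal of 43.8 below which genes were not tested. By Adipoq, Fabp4, Retn and Cidec the fat cell label held for white fat in every gland. The brown markers gave no common label by gland.

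White adipocyte genes were mostly higher in the KO glands, and none passed the test over all genes. Of the 21 measured white members 15 had a higher mean in the KO and 6 a lower one, with a median difference of 0.28, against 0.06 for all genes tested, of which 53.9% had a higher mean (-0.06 and 45.5% for all genes with a probe set). Limma with Benjamini-Hochberg adjustment called 0 of the 26 members tested at an adjusted p of 0.05, where it called 1.24% of all genes tested (1.13% higher, 0.11% lower). At an unadjusted p of 0.05, 7 of the 26 passed, namely Lep, Retn, Plin4, Pparg, Aqp7, Cox8b and Otop1, against 21.8% of all genes tested. Arrays of the same replicate number deviated together from their group means, although the labels state no pairing. A fit with that number as a block ("paired fit") was therefore added, a choice made from these same data. It called 6 of the 26, 5 higher and 1 lower, against 12.2% of all genes tested (7.7% higher, 4.53% lower). In 5 white members the 3 KO values all lay above the 3 wild-type values, against 16.7% of all genes tested, and in 0 members did they all lie below, against 10.6%.

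**Figure D1:**
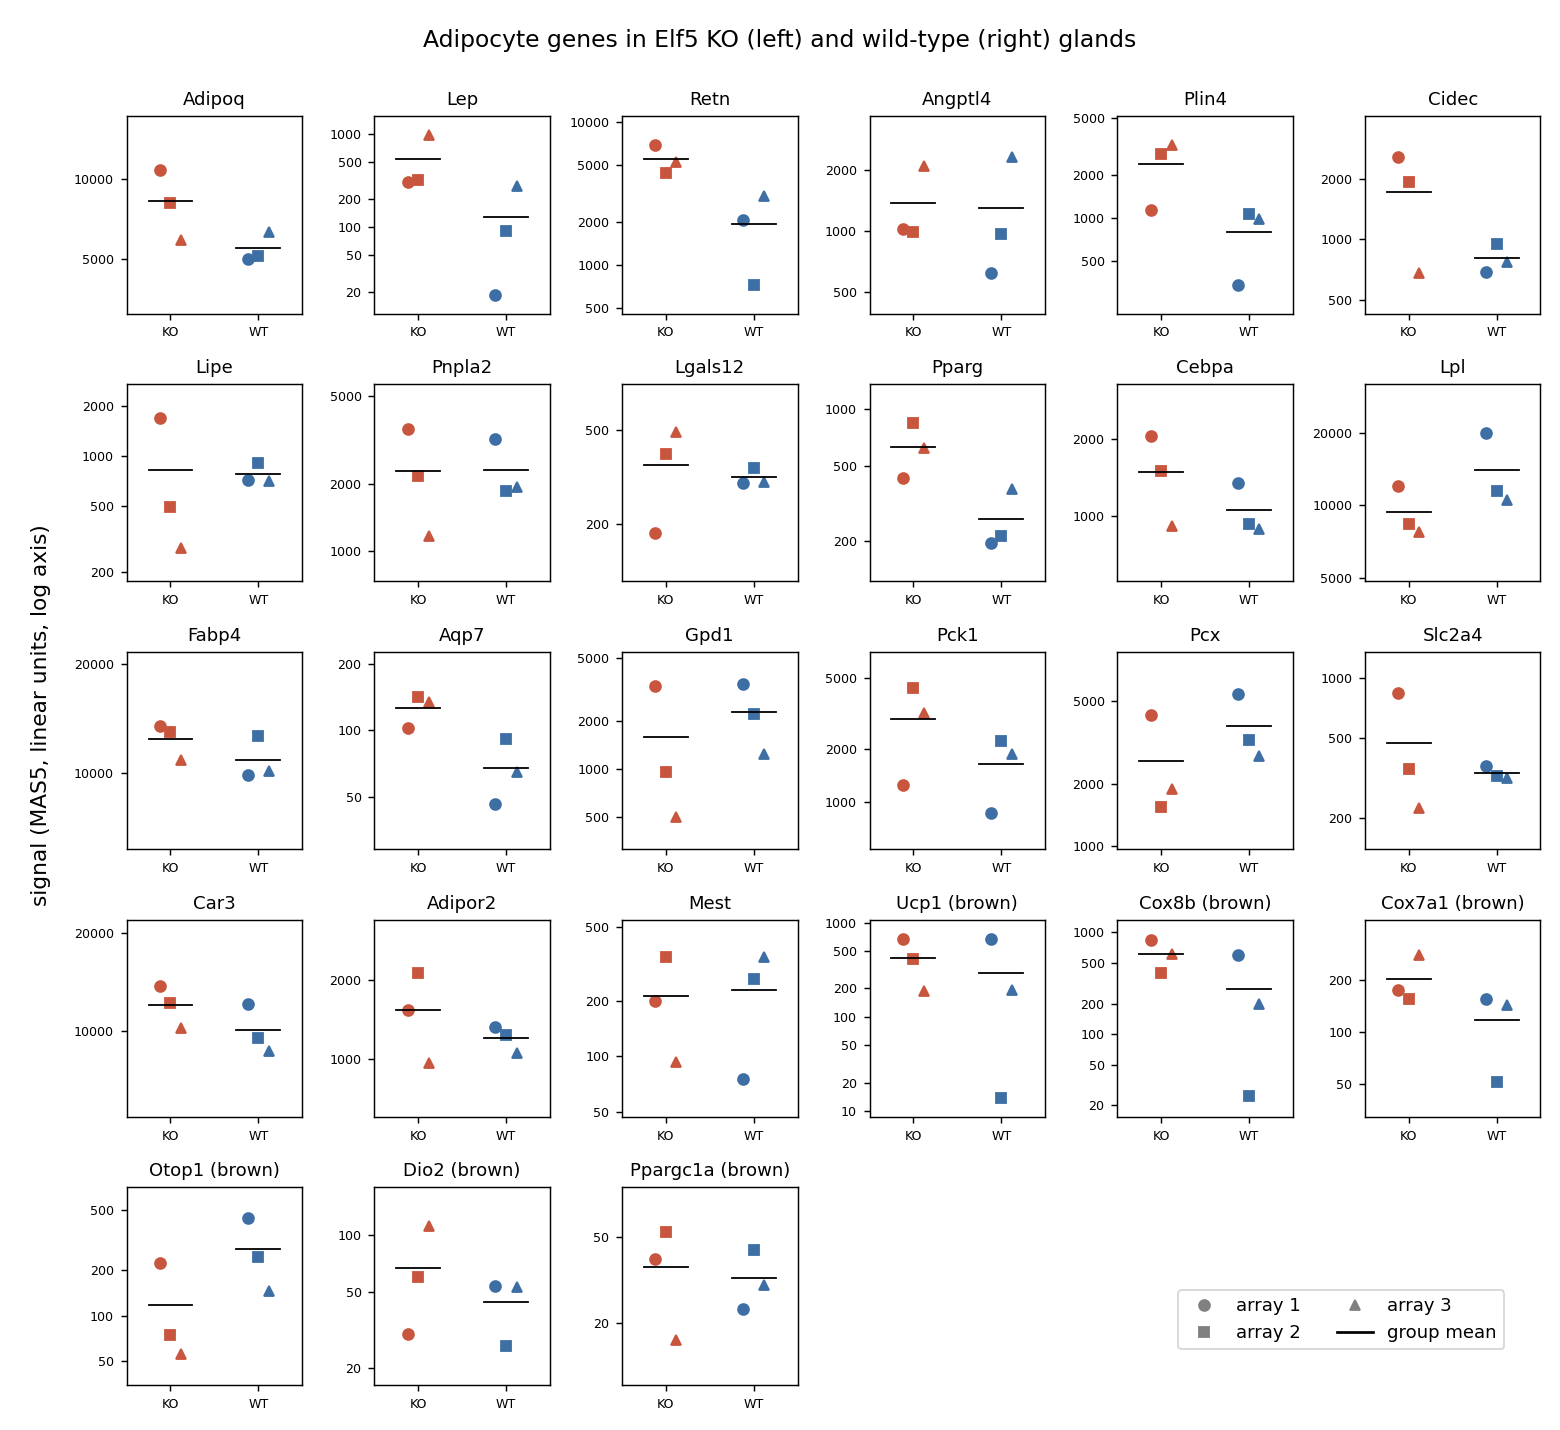
Signal of the 27 measured adipocyte genes in each array (linear MAS5 units on a log axis, each panel with its own range), KO arrays at the left in red and wild-type arrays at the right in blue. Marker shape gives the array number and the bar the group mean (n = 3). Lep, Retn, Plin4, Pparg and Aqp7 are the 5 genes whose groups do not overlap, and wild-type array 2 is the lowest array for Ucp1 and Cox8b.

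Among the white members, the hormones Lep and Retn had the largest differences. Lep, the satiety hormone leptin whose level follows the lipid content of fat cells, read 304, 323 and 983 in the KO arrays, against 18.5, 90.0 and 276 in the wild-type arrays. All KO values lay above all wild-type values, but KO array 1 and wild-type array 3 were close. The difference was 2.22 ± 0.72 (SE, limma adjusted p = 0.126), and Lep passed in the paired fit (adjusted p = 0.0130). KO array 1 alone differed by 1.65. Without wild-type array 1, where Lep was dim, the difference was 1.44. Retn, the adipocyte hormone resistin, read 6917, 4379 and 5291 in the KO arrays, against 2058, 725 and 3031 in the wild-type arrays. The Retn groups were apart, with wild-type array 2 the lowest of the 6. Its difference was 1.70 ± 0.48 (SE, limma adjusted p = 0.0939; paired fit adjusted p = 0.0179), and it was 2.05 for KO array 1 alone. Without wild-type array 2 the Retn difference was 1.12.

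Adipoq differed by 0.56 ± 0.30 (SE, limma adjusted p = 0.294). KO arrays 1 and 2 were above all wild-type arrays and KO array 3 lay within them, so the groups overlapped, and KO array 1 alone differed from wild type by 0.98. Angptl4, an inhibitor of lipoprotein lipase that fasting induces and many tissues make, read 1025, 987 and 2101 in the KO arrays, against 622, 961 and 2322 in the wild-type arrays. The third array was the highest of each group, and the difference of 0.20 ± 0.49 (SE) was within the spread between arrays (-0.12 for KO array 1 alone).

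Droplet proteins and lipases did not move together. Plin4, a coat protein of nascent lipid droplets, read 1137, 2807 and 3233 in the KO arrays, against 340, 1067 and 981 in the wild-type arrays. KO array 1 was only a little above wild-type array 2 while the other KO arrays were far above. Plin4 differed by 1.59 ± 0.52 (SE, limma adjusted p = 0.127), passed in the paired fit (adjusted p = 0.0125), and differed by 0.67 for KO array 1 alone. Cidec, which fuses droplets into the large droplet of white adipocytes, read 2569, 1921 and 683 in the KO arrays, against 684, 951 and 775 in the wild-type arrays. KO array 3 was the lowest of all 6, although KO arrays 1 and 2 were the highest. The Cidec difference was 0.90 ± 0.46 (SE, limma adjusted p = 0.275), and 1.67 for KO array 1 alone.

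Lipe, hormone-sensitive lipase, had the same order of KO arrays, with 1697, 494 and 281 in KO arrays 1, 2 and 3, against 716, 902 and 706 in the wild-type arrays. KO array 1 was above every wild-type array and KO arrays 2 and 3 were below every one. The mean difference of -0.30 ± 0.55 (SE, limma adjusted p = 0.769) thus averages opposite values, and KO array 1 alone differed by 1.12. Pnpla2, adipose triglyceride lipase, which is also made in muscle and other tissues, read 3532, 2186 and 1166 in the KO arrays, against 3186, 1860 and 1934 in the wild-type arrays, with a difference of -0.11 ± 0.42 (SE), and 0.64 for KO array 1 alone. Lgals12, an adipocyte galectin on lipid droplets, read 183, 397 and 493 in the KO arrays, against 300, 347 and 303 in the wild-type arrays. KO array 1 was the lowest of the 6 for Lgals12 and the highest for Lipe and Pnpla2.

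Both measured adipocyte transcription factors had a higher mean in the KO. Pparg, the receptor that drives adipocyte differentiation, read 432, 849 and 621 in the KO arrays, against 196, 214 and 380 in the wild-type arrays. No values overlapped, and Pparg differed by 1.23 ± 0.36 (SE, limma adjusted p = 0.105; paired fit adjusted p = 0.0392). KO array 1 alone differed by 0.74. Cebpa, which maintains the adipocyte state and is also made by liver and myeloid cells, read 2058, 1507 and 918 in the KO arrays, against 1347, 934 and 887 in the wild-type arrays. KO array 3 fell between wild-type values, and the difference was 0.44 ± 0.36 (SE, limma adjusted p = 0.473). KO array 1 alone differed by 0.98.

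Genes of fatty acid uptake and of glycerol handling went both ways. Lpl, lipoprotein lipase, which both fat and the lactating epithelium use to take up plasma lipid, read 12034, 8378 and 7703 in the KO arrays, against 19932, 11493 and 10476 in the wild-type arrays. The difference of -0.54 ± 0.32 (SE, limma adjusted p = 0.341) was lower in each of the 3 replicate pairs, between -0.73 and -0.44. It was -0.15 for KO array 1 alone, and -0.15 over all arrays after quantile normalization. Aqp7, the channel through which adipocytes release glycerol, read 102, 143 and 134 in the KO arrays, against 46.1, 91.5 and 64.6 in the wild-type arrays. Its groups did not overlap, and its difference was 0.80 ± 0.31 (SE, limma adjusted p = 0.183, paired fit adjusted p = 0.0755). KO array 1 alone differed by 0.54. The second Aqp7 probe set, too dim to be tested, differed by 0.96. On that set the groups overlapped, with KO array 3 (37.1) below wild-type array 3 (41.8). Fabp4 differed by 0.20 ± 0.25 (SE) on its brightest probe set, by 0.32 for KO array 1 alone, and by 0.47, 1.49 and 0.47 on its other 3 sets. That brightest set lay near the top of the arrays, with 12948 in KO array 2, where the highest signal of any probe set was 13035. After quantile normalization it differed by 0.69 (limma adjusted p = 0.134).

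Pck1, whose product makes glycerol phosphate from pyruvate in fat and glucose in liver, read 1238, 4418 and 3170 in the KO arrays, against 863, 2217 and 1860 in the wild-type arrays. Arrays numbered 1 were the lowest of each group for Pck1, and its difference was 0.76 ± 0.51 (SE, limma adjusted p = 0.395), or -0.30 for KO array 1 alone. Gpd1, glycerol-3-phosphate dehydrogenase, read 3331, 954 and 500.1 in the KO arrays, against 3427, 2227 and 1251 in the wild-type arrays. KO array 1 matched the highest wild-type array while KO arrays 2 and 3 lay below all of them. Gpd1 differed by -0.85 ± 0.63 (SE, limma adjusted p = 0.439), and by 0.65 for KO array 1 alone. Slc2a4, the insulin-responsive glucose transporter of fat and muscle, read 844, 351 and 223 in the KO arrays, against 362, 322 and 316 in the wild-type arrays, with a difference of 0.28 ± 0.44 (SE) and 1.30 for KO array 1 alone.

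The remaining white members did not pass in any fit with all 6 arrays. Car3, an abundant carbonic anhydrase of white fat that slow muscle also makes, differed by 0.26 ± 0.26 (SE) on its brightest probe set and by 0.46 for KO array 1 alone. This set too lay near the top of the arrays, at 12169 in KO array 2, and differed by 0.75 after quantile normalization (limma adjusted p = 0.0659); the other 3 Car3 sets differed by -0.46, 1.11 and 2.11. Adipor2, a widely made adiponectin receptor, differed by 0.29 ± 0.34 (SE), and by 0.36 for KO array 1 alone. Mest, which marks expanding fat and is imprinted, read 200, 343 and 92.8 in the KO arrays, against 75.0, 263 and 344 in the wild-type arrays. These values overlapped almost fully, with a difference of -0.04 ± 0.57 (SE), and 0.046 for KO array 1 alone. The 11 measured white members that are largely fat-restricted had a median difference of 0.80, with 10 higher, and the 10 that other tissues also use widely had a median of 0.08, with 5 higher. For KO array 1 alone the medians were 0.74 and 0.30, and in the 3 arrays with a Pcx 3' to 5' ratio under 10 they were 1.02 and 0.33. Fabp4 and Car3 count among the fat-restricted genes although endothelium and slow muscle also make them. This split was drawn from textbook knowledge with earlier results of these data known, and the gap between the 2 medians was not tested.

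**Figure D2:**
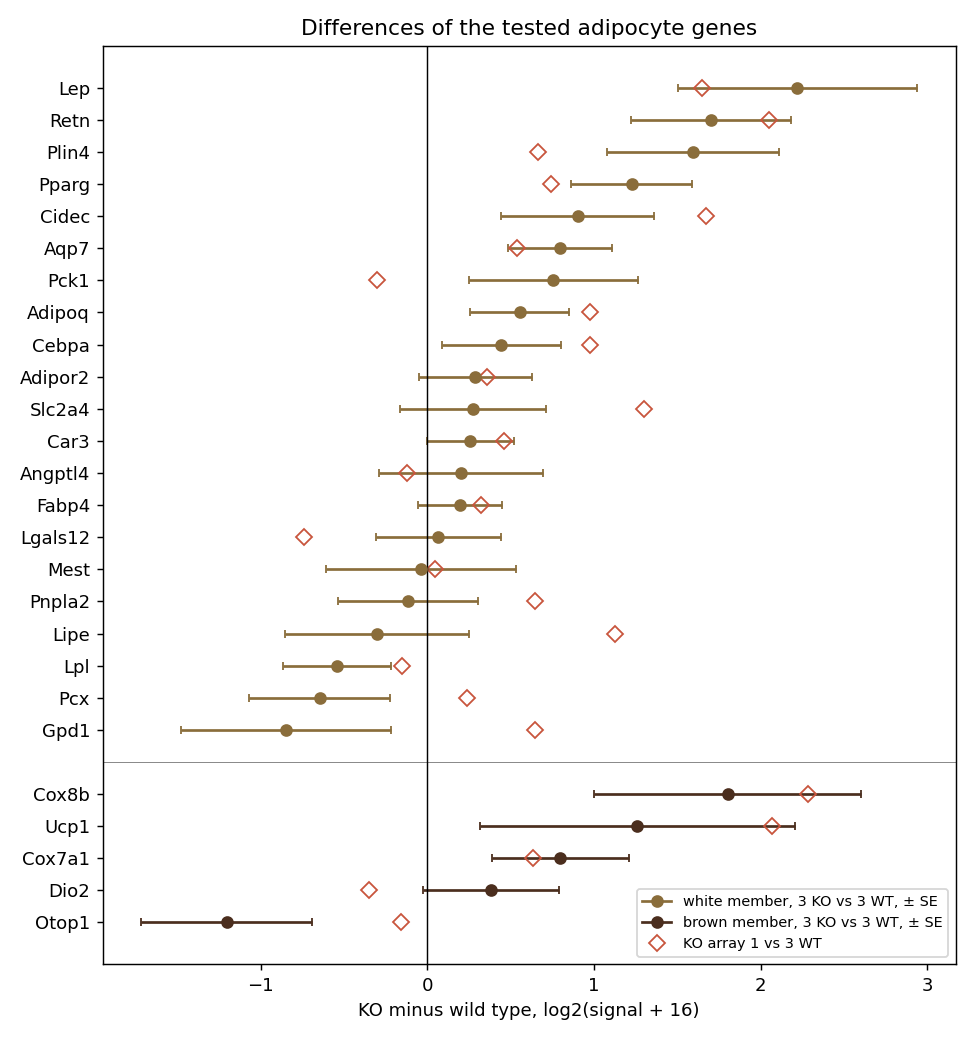
Difference between KO and wild type on the log2(signal + 16) scale for the 26 tested adipocyte genes (filled points, bars are ± SE, 3 arrays per group), white members above the line and brown members below it. Open diamonds give KO array 1 against the 3 wild-type arrays. Lep leads the white members at 2.22, Cox8b the brown ones at 1.80, and for Lipe, Gpd1, Pcx and Pck1, among others, the diamond lies on the other side of 0.

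RNA quality could be read within a member. Pcx, pyruvate carboxylase, feeds oxaloacetate to fatty acid synthesis in fat and mammary epithelium and is also a built-in control of the array with probe sets along its transcript. Its chosen probe set read 4293, 1544 and 1876 in the KO arrays, against 5413, 3263 and 2725 in the wild-type arrays, a difference of -0.65 ± 0.43 (SE, limma adjusted p = 0.387), or 0.24 for KO array 1 alone. The 3' control set read 3158, 1155 and 1514 in the KO arrays, against 3982, 2343 and 2075 in the wild-type arrays, whereas the 5' control set read 651, 14.6 and 24.0, against 791, 626 and 57.5. The 3' to 5' ratio of Pcx was thus 4.85, 79.1 and 63.1 in KO arrays 1, 2 and 3, against 5.04, 3.74 and 36.1 in wild-type arrays 1, 2 and 3. By this measure wild-type array 3 also stood apart, which its Gapdh ratio of 0.876 did not show.

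**Figure D3:**
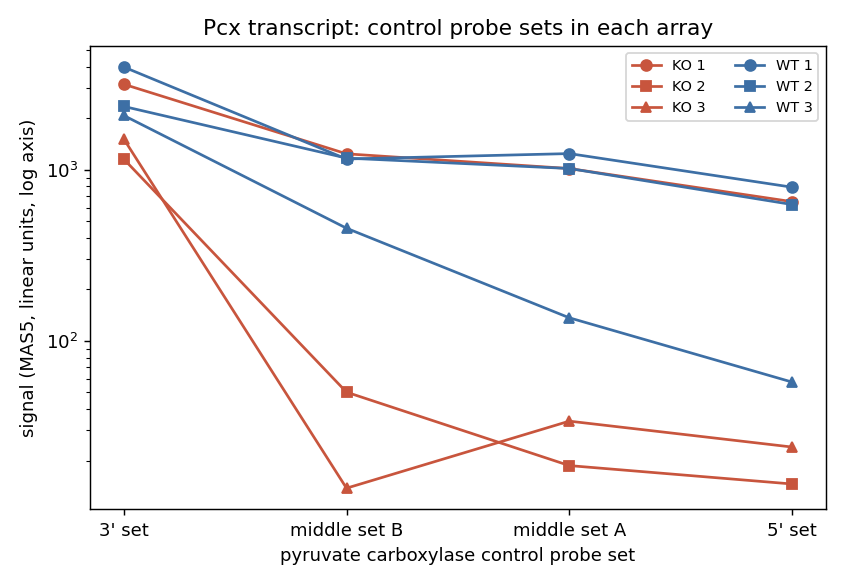
Signal of the 4 control probe sets of Pcx (linear MAS5 units, log axis) in each array, from the 3' set to the 5' set, KO arrays in red and wild-type arrays in blue. KO arrays 2 and 3 and wild-type array 3 drop to between 14.6 and 57.5 at the 5' set, while the other 3 arrays stay at 626 to 791; how the 2 middle sets are ordered along the transcript is not stated.

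Other members had probe sets that disagreed. Of 14 members with several probe sets besides the controls, 8 had more than 1 set bright enough to be tested, and 5 of these 8 (Adipor2, Car3, Lgals12, Pck1 and Slc2a4) had differences of both signs. A second Gpd1 set read 1820.1, 80.1 and 55.2 in the KO arrays, against 1672, 1407 and 260 in the wild-type arrays, so it was low in the same 3 arrays as the 5' set of Pcx. A second Slc2a4 set read 355, 42.5 and 3.3 in the KO arrays, against 107, 96.4 and 64.6 in the wild-type arrays. A second Lgals12 set differed by -1.44, where the brighter one differed by 0.06, and a second Car3 set read 8327, 6370 and 316 in the KO arrays, against 2630, 2397 and 7167 in the wild-type arrays. Lep, Retn, Plin4, Cidec, Pparg, Adipoq and Cebpa had 1 probe set each, so this comparison could not be made for them, and the part of RNA quality in their differences was not tested.

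Over KO array 1 and the 3 wild-type arrays, 17 of the 21 white members were higher in the KO, with a median of 0.64. Of all genes 49.8% were higher, with a median of -0.0019, and of the 10916 genes tested 5863 were, with a median of 0.04. The 9 white members that were highest of all 6 in KO array 1 included Adipoq, Retn, Cidec, Lipe and Slc2a4, and KO array 1 was the highest for 11.2% of all genes tested. KO array 3 was the lowest of the 6 for 7 of the 21, against 30.8% of all genes tested, and wild-type array 1 for 9, against 22.3%. Limiting the comparison further to the 3 arrays with a Pcx ratio under 10 (KO array 1 against wild-type arrays 1 and 2), 18 of 21 white members were higher, with a median of 0.53. Of the 10916 genes tested 5963 were higher there, with a median of 0.05. That last set of arrays was chosen after seeing the data. No member passed in either set of arrays, each of which has 1 KO gland.

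The 5 members without overlap between groups are shown here with the 250 bases before a RefSeq start (GRCm38.p6, gene strand, 5' to 3'), so that the elements of the adipocyte factors near their starts can be seen. Capitals mark matches, on either strand, to TTGCNNAA, bound by C/EBP factors, or to AGGTCA, the element that nuclear receptors such as Pparg bind in repeats. CCGGAA, an ETS core, was also searched. The table lists 3 starts for Pparg and 2 for Aqp7; the most downstream of Pparg and the first of Aqp7 are printed, chosen with the matches known. The windows are Retn at chr8:3655520-3655769 (plus strand), Pparg at chr6:115421816-115422065 (plus), Lep at chr6:29059971-29060220 (plus), Plin4 at chr17:56109783-56110032 (minus) and Aqp7 at chr4:41048137-41048386 (minus).
Retn: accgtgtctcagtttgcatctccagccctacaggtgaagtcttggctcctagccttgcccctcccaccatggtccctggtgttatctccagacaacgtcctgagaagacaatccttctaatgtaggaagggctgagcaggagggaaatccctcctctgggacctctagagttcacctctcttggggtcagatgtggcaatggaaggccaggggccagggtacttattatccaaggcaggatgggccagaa
Pparg: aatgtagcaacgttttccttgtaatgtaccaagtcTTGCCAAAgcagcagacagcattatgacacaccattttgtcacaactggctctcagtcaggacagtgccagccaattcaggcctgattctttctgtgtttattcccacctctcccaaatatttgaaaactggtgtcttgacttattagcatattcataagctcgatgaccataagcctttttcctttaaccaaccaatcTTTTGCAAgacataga
Lep: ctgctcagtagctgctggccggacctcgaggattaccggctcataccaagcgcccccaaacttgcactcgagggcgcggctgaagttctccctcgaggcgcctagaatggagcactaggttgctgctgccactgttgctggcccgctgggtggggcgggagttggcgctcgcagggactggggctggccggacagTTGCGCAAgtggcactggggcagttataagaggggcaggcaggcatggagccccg
Plin4: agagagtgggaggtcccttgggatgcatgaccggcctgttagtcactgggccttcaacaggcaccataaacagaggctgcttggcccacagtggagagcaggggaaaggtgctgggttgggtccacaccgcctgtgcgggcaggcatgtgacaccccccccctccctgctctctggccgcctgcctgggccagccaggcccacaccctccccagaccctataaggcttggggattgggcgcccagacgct
Aqp7: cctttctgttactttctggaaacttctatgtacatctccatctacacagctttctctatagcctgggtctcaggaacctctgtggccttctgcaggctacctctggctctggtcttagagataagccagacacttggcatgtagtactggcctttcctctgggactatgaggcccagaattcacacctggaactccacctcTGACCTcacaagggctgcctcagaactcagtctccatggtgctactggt
The Lep window held TTGCGCAA, which begins 55 bases before the start and matches TTGCNNAA on both strands. The Pparg window held matches to TTGCNNAA that begin 215 and 16 bases before the start, and the Aqp7 window held AGGTCA on the opposite strand, beginning 49 bases before it. Of the windows not printed, the other 2 of Pparg each held AGGTCA, 28 and 9 bases before the start, and no TTGCNNAA, and the second of Aqp7 held AGGTCA on the opposite strand at 2 places. The Retn and Plin4 windows held none of the 3 motifs, and CCGGAA was in none of the 5. Of all 32851 windows of this length in the table, 9.56% held TTGCNNAA, 14.0% held AGGTCA and 12% held CCGGAA, and of 32 windows of the 23 members listed there, 6, 5 and 2 did. A match is a description of these letters and not a bound site.

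Brown adipocyte genes shared no single pattern over the glands. Of the 6 members 5 had a higher mean in the KO, with a median difference of 0.59, and without wild-type array 2 the median was 0.19. Ucp1, the uncoupling protein that defines brown fat, read 664, 406 and 187 in the KO arrays, against 672, 13.8 and 191 in the wild-type arrays. Wild-type array 2 alone was low, and the highest arrays of both groups were alike. Ucp1 differed by 1.26 ± 0.94 (SE, limma adjusted p = 0.445), by 0.04 without wild-type array 2 and by 2.07 for KO array 1 alone.

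Cox8b, a cytochrome oxidase subunit of brown fat and muscle, read 834, 403 and 619 in the KO arrays, against 604, 24.6 and 196 in the wild-type arrays. The same wild-type array was low, and KO array 2 lay below wild-type array 1. Cox8b differed by 1.80 ± 0.80 (SE, limma adjusted p = 0.228; paired fit adjusted p = 0.0467), by 0.75 without wild-type array 2, by 2.71 without wild-type array 1 and by 2.28 for KO array 1 alone. The value of 24.6 is under the signal of 43.8 below which genes were not tested. Cox7a1, the matching subunit of heart, muscle and brown fat, read 176, 157 and 282 in the KO arrays, against 157, 51.7 and 144 in the wild-type arrays, with a difference of 0.80 ± 0.41 (SE, limma adjusted p = 0.281), and 0.64 for KO array 1 alone. Wild-type array 2 was thus the lowest of all 6 for Ucp1, Cox8b and Cox7a1.

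Otop1, a proton channel enriched in brown fat, ran the other way, with 224, 74.3 and 56.0 in the KO arrays, against 439, 244 and 145 in the wild-type arrays. KO array 1 lay above wild-type array 3, so the groups overlapped. Otop1 differed by -1.20 ± 0.51 (SE, limma adjusted p = 0.211) and was lower in all 3 replicate pairs, between -1.52 and -0.93 (paired fit adjusted p = 0.0270). KO array 1 alone differed by -0.16. Dio2, the deiodinase that activates thyroid hormone in brown fat, read 30.1, 60.4 and 112 in the KO arrays, against 54.0, 26.0 and 53.3 in the wild-type arrays, near the testing limit of 43.8. Its difference was 0.38 ± 0.41 (SE), or -0.35 for KO array 1 alone. Ppargc1a, a coactivator of mitochondrial genes, had a mean under that limit, at 39.6, 52.8 and 16.7 in the KO arrays and 23.2, 43.6 and 30.2 in the wild-type arrays.

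Skeletal muscle, which lies beside the gland, also makes Cox8b, Cox7a1, Slc2a4, Ppargc1a and Car3. All 16 genes of a muscle list were measured. Their summed signal was 3334, 13302 and 4478 in the KO arrays, against 689, 6592 and 824 in the wild-type arrays, with Acta1, skeletal actin, at 790.1, 2784 and 355 against 144, 2268 and 180. All 16 had a higher mean in the KO (median 1.39, and 0.85 for KO array 1 alone). Limma called 0 of the 15 tested over all genes, with 5 at an unadjusted p of 0.05, against 21.8% of all genes tested. The paired fit called 8, all higher, against 7.7% of all genes tested. The muscle sum was highest of each group in the arrays numbered 2. The part of muscle in the differences of Cox8b, Cox7a1, Slc2a4, Ppargc1a and Car3 was not tested.

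**Figure D4:**
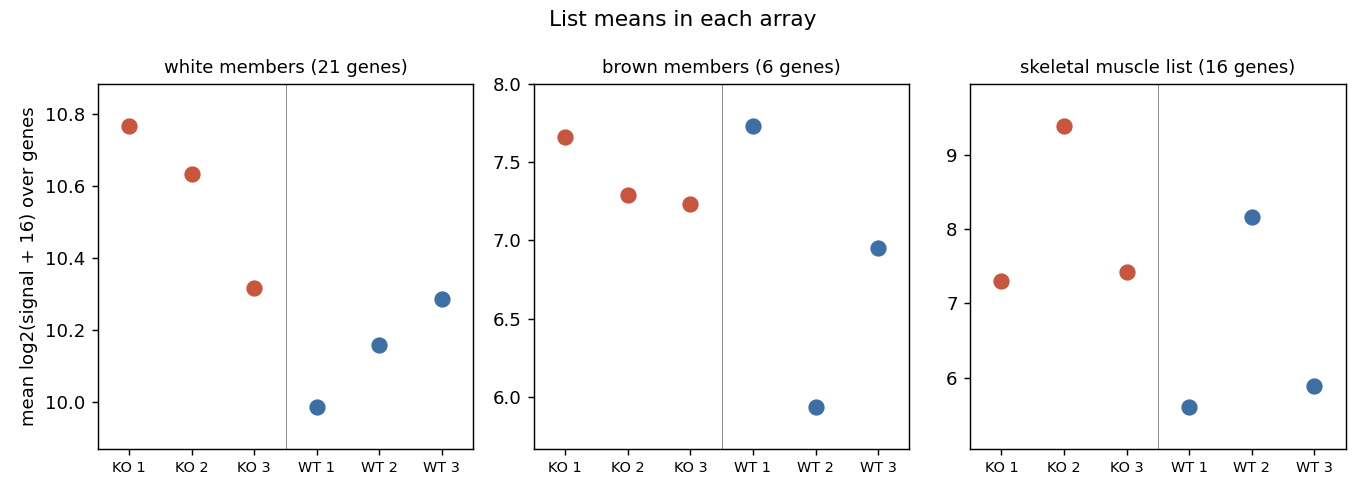
Mean log2(signal + 16) per array over the 21 white members, the 6 brown members and the 16 genes of the skeletal muscle list (each panel with its own axis), KO arrays left in red and wild-type arrays right in blue. The white mean is higher in all 3 KO arrays (in KO array 3 by little), the brown mean is lowest in wild-type array 2, and the muscle mean is highest in the arrays numbered 2.

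Averaged over each list, the white members separated the groups narrowly and the brown members did not. The mean log2 value of the white members was 10.77, 10.63 and 10.32 in the KO arrays, against 9.99, 10.16 and 10.28 in the wild-type arrays, so all KO arrays lay above all wild-type arrays, KO array 3 by little. The brown mean was 7.66, 7.29 and 7.23 in the KO arrays, against 7.73, 5.94 and 6.95 in the wild-type arrays, where wild-type array 1 was above every KO array. The spread between arrays of 1 group (pooled SD) was 0.19 for the white mean and 0.66 for the brown mean. Between arrays of replicate number 1, 2 and 3 the white members had a median difference of 0.71, 0.36 and -0.10. The brown members had 0.06, 1.11 and 0.43. Whether the 2 lists differ in their response to the genotype was not tested.

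Other adipocyte genes, taken from a list written with earlier results known, were higher as well. Of 30 measured genes 21 had a higher mean, with a median of 0.94 (0.61 for KO array 1 alone), and 3 of 30 rose over all genes, against 1.13% of all genes tested. Hp, haptoglobin, which fat and liver secrete, read 1717, 735 and 1637 in the KO arrays, against 202, 256 and 277 in the wild-type arrays, and rose by 2.32 ± 0.37 (SE, limma adjusted p = 0.0356). Rbp4, a retinol carrier secreted by fat and liver, rose by 2.10 ± 0.32, and Pde3b, the phosphodiesterase through which insulin restrains lipolysis, by 2.07 ± 0.38 (adjusted p = 0.0356 and 0.0446); Pde3b was named because it passed, after its values were seen. The 2 largest negative differences were those of Abhd5 (-1.81 ± 0.54), a coactivator of Pnpla2, and G0s2 (-1.38 ± 0.39), an inhibitor of Pnpla2. For KO array 1 alone Abhd5 and G0s2 differed by -0.76 and -0.69, and Hp, Rbp4 and Pde3b by 2.74, 2.41 and 1.43. The paired fit called Abhd5 and G0s2 lower (adjusted p = 0.0224 and 0.0121). Of the 30 tested it called 15 higher and 2 lower, against 7.7% and 4.53% of all genes tested.

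Further brown adipocyte genes split in direction. Of 19 measured, 13 were tested, and limma called 0 of them over all genes, with 7 at an unadjusted p of 0.05, against 21.8% of all genes tested. Cidea, a droplet protein that brown fat and the secreting mammary epithelium share, read 9236, 1219 and 1577 in the KO arrays, against 22478, 10938 and 9498 in the wild-type arrays, a difference of -2.34 ± 0.68 (SE, limma adjusted p = 0.0995; paired fit adjusted p = 0.0123). For KO array 1 alone Cidea differed by -0.52. Ucp3, an uncoupling protein relative best known from muscle and brown fat, differed by -2.05 ± 0.46 (paired fit adjusted p = 0.0125), and by -1.75 for KO array 1 alone. Slc25a20, the mitochondrial carnitine carrier, differed by 1.51 ± 0.55 (limma adjusted p = 0.163, paired fit adjusted p = 0.0320). Ebf2, a factor of brown precursor cells, differed by 0.85 ± 0.36. Of the 13 tested the paired fit called 1 higher and 3 lower, against 7.7% and 4.53% of all genes tested. For KO array 1 alone Slc25a20 and Ebf2 differed by 0.74 and 1.28.

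Precursor and stromal genes were higher beside the fat genes. All 9 measured genes of a preadipocyte list had a higher mean in the KO (median 1.05, and 0.71 for KO array 1 alone). Limma called 1 of the 7 tested higher, against 1.13% of all genes tested. This was Pdgfra, a receptor of adipose precursors and fibroblasts. Pdgfra differed by 1.79 ± 0.36 (SE, limma adjusted p = 0.0487), and by 1.22 for KO array 1 alone. Pdgfrb differed by 1.74 ± 0.50 (limma adjusted p = 0.0985, paired fit adjusted p = 0.0301), Cd34 by 0.82 ± 0.49 and Dpp4 by 0.71 ± 0.35. For KO array 1 alone Pdgfrb, Cd34 and Dpp4 differed by 0.84, 1.62 and 0.38. Of 12 fibroblast genes 11 were higher (median 1.09, and 1.55 for KO array 1 alone). Limma called 3 of the 12 higher, against 1.13% of all genes tested. The fibroblast list had summed signals of 39484, 29666 and 24490 in the KO arrays, against 20586, 12943 and 13854 in the wild-type arrays. Col3a1 read 10437, 8030 and 7047 against 7911, 5088 and 4625. Endothelial genes had a median of 0.03, with 6 of 10 higher, and for KO array 1 alone a median of 0.38, with 9 of 10 higher. Limma called 1 of the 10 higher, against 1.13% of all genes tested. This was Vwf, the clotting factor of vessel walls, which was named after its values were seen. Vwf rose by 1.54 ± 0.31 (SE, limma adjusted p = 0.0498), and by 1.30 for KO array 1 alone. The endothelial list had summed signals of 1933 to 2603 in the KO and 1694 to 1950 in wild type, and Esam at 357 to 578 against 261 to 383. The luminal epithelial list had 9 of 12 genes lower (median -0.58, and -0.33 for KO array 1 alone). Limma called 0 of the 12 tested, against 1.24% of all genes tested. The paired fit called 1 higher (Cdh1) and 3 lower (Cldn7, Lalba and Csn1s1), against 7.7% and 4.53% of all genes tested. Its summed signals were 56122 to 78698 in the KO arrays and 67172 to 154332 in the wild-type arrays. Its brightest gene, the milk protein gene Csn1s1, read 10273 to 16155 against 12253 to 33934. The milk protein genes Csn1s1, Csn2, Csn3, Wap and Lalba differed by -1.33 to -0.51 (limma adjusted p between 0.263 and 0.452). For KO array 1 alone these 5 differed by -0.40 to -0.32. Csn1s1 lay near the top of the arrays, with 12987 in KO array 2, where the highest signal of any probe set was 13035. Krt8 (0.27), Krt18 (0.45) and Cdh1 (0.93) had a higher mean, and Krt19 (-0.11) and Epcam (-0.06) differed little. The claudin genes Cldn3 and Cldn7 differed by -0.96 ± 0.50 and -1.22 ± 0.35 (SE, limma adjusted p = 0.286 and 0.0987). They differed by -0.21 and -0.64 for KO array 1 alone. Cldn7 was the 1 gene of the list with all KO values below all wild-type values, against 10.6% of all genes tested. For KO array 1 alone Krt8, Krt18 and Cdh1 differed by -0.21, 0.0094 and -0.13. Genes of this list besides Csn1s1 were named after their values were seen. The part of these other cell types in the white adipocyte differences was not tested.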

How the data were processed

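Whole-gland RNA of 3 Elf5 KO and 3 wild-type mice was measured on 1 array each. The authors deposited linear signal intensities for 45101 probe sets, and per the submitters' processing notes the tools were MAS5 and affy, without versions. The values have a mean of 150 after trimming 2% at each end on every array. Detection calls and image files were not used, and the number of arrays limits the precision. Groups and replicate numbers came from the titles.

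Gene symbols came from the annotation of the platform, in which 34945 probe sets had 1 symbol. For each of 18193 genes the probe set with the highest mean of log2(signal + 16) was taken, control sets left out. Genes under the 40th percentile of that mean (a signal of about 43.8) were not tested, which left 10916. The test of KO against wild type used limma (version 3.58.1, under R 4.3.3; lmFit, eBayes with an intensity trend, Benjamini-Hochberg over all genes tested, threshold 0.05), and the fit was tested on simulated data. Fold changes on this scale understate the change of dim genes. Dio2, Ppargc1a and other dim genes are read with that limit.

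Arrays of the same replicate number correlated in their deviations from the group means at 0.46, 0.34 and 0.29, and the highest value between different numbers was 0.15. The labels state no pairing. As each was over 0.1, a fit with the number as a block is given for each member whose call it changes. It is also given for some of the other named genes. The block was thus chosen from the same data that it tests, and its p-values are read with that limit. The limma p-values set a mean difference against the spread between arrays of a group, moderated over all genes tested. In the paired fit they use the spread left after the block.

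Members and gene lists were chosen with earlier results of these data known. Named genes were all 31 members, Elf5, the 2 highest and 2 lowest differences of each further adipocyte list among genes that passed the filter, and the brightest gene in KO or wild type of each list of another cell type (others are marked as chosen after their values were seen); promoters were shown for members without overlap between groups. Alternatives were the pseudocount, filter, scaling, block, RNA quality, probe set choice and left-out arrays. Sequences came from RefSeq tables of GRCm38.p6, in which 23 of the 31 members had an entry.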

Additional observations from a re-analysis of the deposited data

How the results depend on the processing

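The lack of a call among the members held in all settings but these: the fit with the replicate block called 6, and the fits that left out an array called between 0 and 3, the 3 (Plin4, Pparg and Otop1) without KO array 1. Without KO array 1 only KO arrays with a Gapdh ratio of 3.89 and 13.6 remain. Limma then called 1206 of all genes, against 135 with all arrays. The KO and a high Gapdh ratio coincide in that fit and cannot be told apart, although by beta-actin only KO array 3 had a high ratio. The median of the white members, 0.28 with all arrays, was 0.58 with the Gapdh ratio as a covariate, 0.64 in the arrays with a Gapdh ratio under 2 and 0.53 in those with a Pcx ratio under 10 (chosen after seeing the data). It was 0.45 after quantile normalization and 0.21 after median scaling. It ranged from 0.25 to 0.59 with an array left out, the highest without KO array 3. The brown median ranged from 0.19 (without wild-type array 2) to 0.80. The cause was not tested. Choosing probe sets and the filter by linear means, also added after seeing the data, called 119 of all genes and 0 members.

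The direction of some members turned, none of which was called. With the Gapdh covariate Angptl4 differed by -0.20, Lipe by 0.89, Pnpla2 by 0.57, Lgals12 by -0.57, Gpd1 by 0.37, Mest by 0.47 and Dio2 by -0.32. In the arrays with a Gapdh ratio under 2 the values were -0.12 for Angptl4, 1.12 for Lipe, 0.64 for Pnpla2, -0.74 for Lgals12, 0.65 for Gpd1, -0.30 for Pck1, 0.24 for Pcx, 0.046 for Mest and -0.35 for Dio2. In the arrays with a Pcx ratio under 10 they were 1.06 for Lipe, 0.53 for Pnpla2, -0.77 for Lgals12, 0.27 for Gpd1, -0.16 for Pck1, 0.030 for Pcx, 0.44 for Mest and -0.23 for Dio2. With the mean of all probe sets Lipe differed by 0.0074, Pnpla2 by 0.32, Lgals12 by -0.69, Pck1 by -0.011, Slc2a4 by -0.10, Adipor2 by -0.14 and Dio2 by -0.11; the further sets of Lipe, Pnpla2 and Dio2 were too dim to be tested. After quantile normalization Lgals12 was at -0.0028 and Mest at 0.024, and after median scaling Lgals12 was at -0.0027. With an array left out, Angptl4 ranged from -0.21 to 0.72, Lipe from -1.01 to 0.25, Pnpla2 from -0.49 to 0.30, Lgals12 from -0.21 to 0.47, Slc2a4 from -0.24 to 0.69, Mest from -0.64 to 0.41 and Ppargc1a, which was not tested, from -0.16 to 0.38. Lep, Retn, Plin4, Pparg, Aqp7, Cidec and Adipoq kept their direction in all 19 settings. So did Cebpa, Fabp4, Car3, Ucp1, Cox8b and Cox7a1, which were higher, and Lpl and Otop1, which were lower. The replicate block changed the calls of Lep, Retn, Plin4, Pparg, Cox8b (adjusted p = 0.0467) and Otop1 and of no other member. Array signals of Ppargc1a, Dio2, Ucp1 and Cox8b in wild-type array 2 and Lep in wild-type array 1 lay near or under the limit of 43.8 below which genes were not tested, and with a pseudocount of 1 or 64 Cox8b differed by 2.03 or 1.41 and Lep by 2.54 or 1.70.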

Other observations

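Immune genes were higher beside the fat genes. Of 8 measured genes of a lymph node list all had a higher mean in the KO, with a median difference of 0.97 on the log2 scale. In 5 of the 8 all KO values lay above all wild-type values, against 2247 of all 18193 genes with a probe set. Limma called 0 of the 6 tested, with 4 at an unadjusted p of 0.05, against 21.8% of all genes tested. The summed signal was 1159, 732 and 1645 in KO arrays 1, 2 and 3, against 631, 365 and 442 in wild-type arrays 1, 2 and 3, and Cd3d, a chain of the T cell receptor complex, read 160, 118 and 507 against 77.1, 32.9 and 31.7. Of 10 macrophage genes 8 had a higher mean (median 0.56). Limma called 2 of the 10 higher, against 1.13% of all genes tested. Mrc1 rose by 1.67 ± 0.29 and Cd163 by 1.93 ± 0.30 (SE, limma adjusted p = 0.0446 and 0.0356). For KO array 1 alone Mrc1 and Cd163 differed by 1.51 and 1.64. They were named after their values were seen. The brightest gene in wild type, Cd14, a receptor for bacterial lipopolysaccharide, went the other way, at 2060, 2875 and 2108 in the KO arrays, against 2895, 3689 and 6214 in the wild-type arrays, a difference of -0.80 ± 0.34 (SE, limma adjusted p = 0.209). The brightest in the KO was Lyz2, macrophage lysozyme, at 5598, 3020 and 2951 in the KO arrays, against 2119, 1510 and 1555 in the wild-type arrays.

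Ppargc1a had 5 probe sets, all dim, that did not agree. One of them read 14.7, 43.5 and 61.0 in the KO arrays, against 24.2, 6.8 and 5.2 in the wild-type arrays, a difference of 0.95, while the chosen set differed by 0.07.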
